A study of Arabidopsis thaliana with 72 samples.

Results

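The search used 15 symbol prefixes of water channel and mineral nutrient transporter genes. Of these, 4 had a member among the probe sets of the ATH1 array that the given annotation ties to 1 gene. The members were 5 genes of 13513, while 133 genes in the reference table carried such a symbol. Members were the single-gene probe sets whose symbol began with PIP, TIP, NIP, SIP, NRT, AMT, PHT, SULTR, KUP, HAK, ZIP, IRT, NRAMP, YSL or MTP followed by a digit, a choice that used no measured value. ZIP6 (AT2G30080, probe set 267304_at), ZIP9 (AT4G33020, 253413_at), NRAMP5 (AT4G18790, 254640_at), MTP11 (AT2G39450, 266963_at) and NRT2.5 (AT1G12940, 261198_at) each had 1 probe set. No aquaporin and no ammonium, phosphate, sulfate or potassium transporter matched, so the genes described are 4 metal transporter genes and 1 nitrate transporter gene. Genes with the other 11 prefixes are not analysed here.

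The study measured transcripts in Arabidopsis thaliana plants of the Wassilewskija accession that were moved to low atmospheric pressure. The groups were roots and shoots of plants 10 days old, held at 10 kPa with oxygen at 2.1 kPa, or at 97 kPa with oxygen at 21 kPa, for 1, 3, 6, 12, 48 or 72 h, which made 24 groups of 3 arrays and 72 arrays in all. Both atmospheres held carbon dioxide at 0.05 kPa with nitrogen as the balance, and all plants were under constant light, so that total pressure and oxygen changed together. Each replicate was 1 tube of about 12 pooled plants from its own chamber, preserved in RNAlater and later cut into roots and a shoot part that included the hypocotyl; some descriptions give the control pressure as 101 kPa.

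ZIP proteins (ZRT/IRT-like proteins) carry zinc, iron and other divalent metals into the cytosol, NRAMP proteins (natural resistance-associated macrophage proteins) do likewise for manganese, iron and related metals, and MTP proteins (metal tolerance proteins, of the cation diffusion facilitator family) move metals out of the cytosol into compartments. MTP11 handles manganese in the secretory pathway, and ZIP9 is among the genes that zinc shortage induces through the transcription factor bZIP19. NRT2.5 is a high-affinity nitrate transporter that nitrogen starvation induces, known for nitrate uptake in starved roots and for loading nitrate into the phloem of shoots. No sequences are shown, because the annotation used here holds none.

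Values are MAS5 signal, a linear intensity scaled to the same trimmed mean on every array, and changes are log2 ratios on the scale of signal plus 8.90, which understates the change of dim genes. Errors of changes are standard errors (SE) of the limma model, and the words rose and fell are kept for changes with a Benjamini-Hochberg adjusted p, over all probe sets tested, below 0.05. In whole roots or shoots, fewer cells of a type and less RNA per cell cannot be told apart. Tissue identity was checked with marker genes. The summed signal of 8 of 18 photosynthesis markers was 2744 to 23309 on root arrays and 135713 to 225813 on shoot arrays. The sum of 3 of 16 root markers was 22420.4 to 44706 on root arrays and 543 to 2689 on shoot arrays. None of these markers was at 0. The numbers that the descriptions give the arrays ran in blocks that followed pressure, so block and pressure cannot be told apart, except for 1 pair of arrays per tissue at 72 h that was numbered apart. Late and early controls also lay in different blocks. The mean log2 ratio of 3′ to 5′ probe sets of plant control genes, a sign of RNA quality, was 3.43 to 5.86 in roots and 1.95 to 3.97 in shoots.

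The 5 genes differed in how well the arrays measured them. ZIP6 and MTP11 lay at or above the 40th percentile of the array in all 36 root and all 36 shoot arrays. In roots ZIP9 reached that level in 10 arrays, NRT2.5 in 4 and NRAMP5 in 3, just enough for a filter that asks for 3. In shoots NRT2.5 reached it in 19 arrays, ZIP9 in 1 and NRAMP5 in 0 of 36. All 5 genes were therefore tested in roots, and ZIP6, MTP11 and NRT2.5 in shoots. The spread differed too: the median coefficient of variation within a root group was 8.25% for MTP11, 10.4% for ZIP6, 26.7% for ZIP9, 52.3% for NRAMP5 and 58.2% for NRT2.5. In shoots it was 12.6% for MTP11, 14.2% for ZIP6 and 33.5% for NRT2.5, so that small changes could be seen only for MTP11 and ZIP6.

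**Figure D1:**
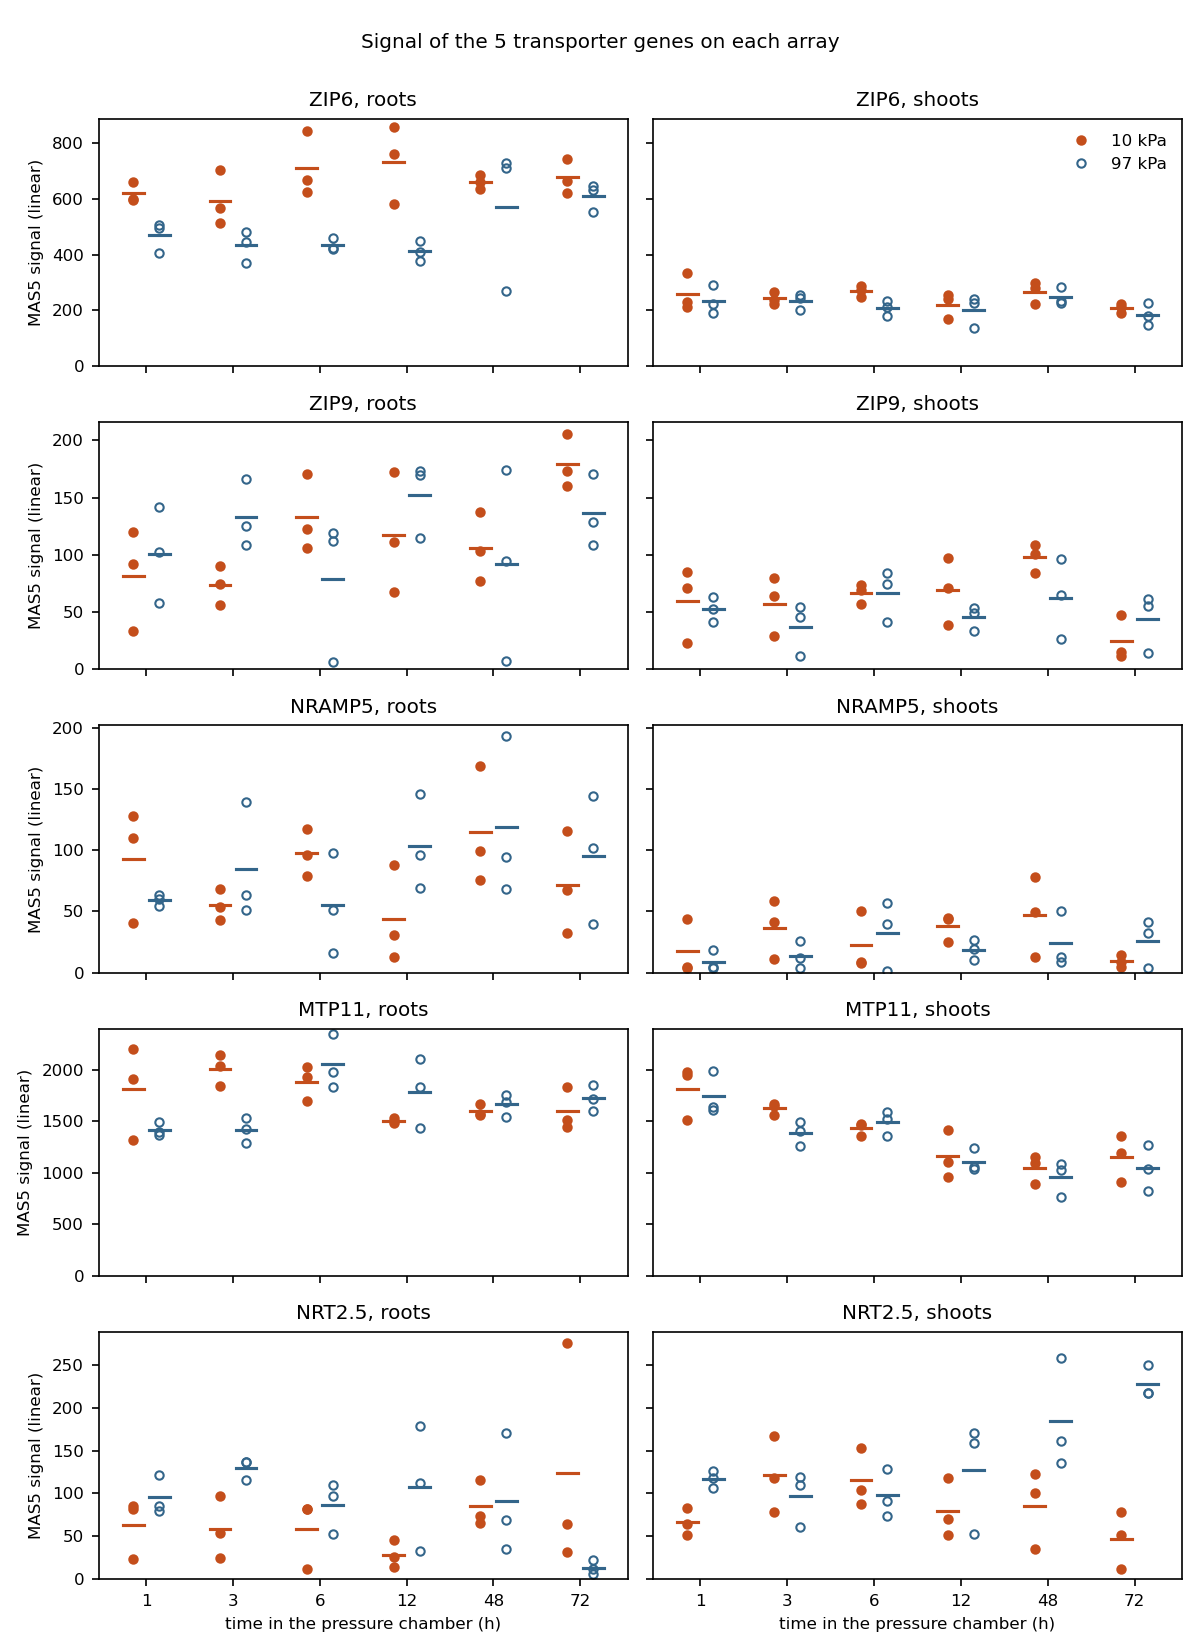
MAS5 signal (vertical axis, linear) of the 5 genes on each array against time in the pressure chamber in h, with roots on the left and shoots on the right; filled points are 10 kPa arrays, open points 97 kPa arrays, and lines the means of 3. ZIP6 in roots stands above its controls without overlap at 1, 3, 6 and 12 h, and NRT2.5 in shoots lies below its controls without overlap at 72 h. Of all probe sets, 11.9% to 13.2% separated as ZIP6 did at those times, and 17.3% as NRT2.5 did.

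ZIP6 rose in roots at 10 kPa. Its mean at 10 kPa exceeded that at 97 kPa at all 6 times in roots, and averaged over the times it rose 1.39-fold (95% interval 1.22 to 1.58).

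After 1 h in roots, ZIP6 gave 601, 597 and 662 at 10 kPa, against 507, 406 and 495 at 97 kPa. After 3 h it gave 567, 514 and 702 at 10 kPa, against 482, 447 and 372 at 97 kPa. Neither pair of groups overlapped, but the changes of 0.40 and 0.44 (SE 0.23 each) did not pass the test (limma adjusted p = 0.454 and 0.326). Of all probe sets in roots, 11.9% at 1 h and 12.1% at 3 h separated in that direction. After 6 h the 10 kPa roots gave 668, 625 and 845, against 425, 460.2 and 421 at 97 kPa. After 12 h they gave 762, 581 and 857, against 377, 411 and 448 at 97 kPa. These were the times at which the groups lay farthest apart, with all 3 arrays at 10 kPa above all 3 at 97 kPa. Such a separation was seen for 13.2% of all probe sets in roots at 6 h and for 12.5% at 12 h. ZIP6 rose by 0.69 (SE 0.23, limma adjusted p = 0.0494) at 6 h and by 0.80 (SE 0.23, limma adjusted p = 0.0152) at 12 h. The call at 6 h was close to the threshold and was lost in 11 of 16 other settings, among them each array of the comparison left out in turn; that at 12 h was lost in 3 of 16, without 10 kPa replicate 1 or 3 or 97 kPa replicate 1, where the highest adjusted p was 0.101.

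After 48 h in roots, ZIP6 gave 634, 685 and 661 at 10 kPa, against 711, 268 and 731 at 97 kPa. One control array was thus far below all others, and the other 2 lay above all 3 arrays at 10 kPa. After 72 h it gave 745, 623 and 665 at 10 kPa, against 647, 631 and 553 at 97 kPa, and the groups overlapped. Neither time passed the test, with changes of 0.34 and 0.15 (SE 0.23 each; limma adjusted p = 0.364 and 0.77). At 10 kPa the group means at the 6 times lay between 594 and 733, while at 97 kPa they were 412 to 469 up to 12 h and 569.9 and 610.3 at 48 and 72 h. The late minus early change of the 97 kPa level, a comparison added after the values were seen, was 0.32 (SE 0.16) and did not pass the test (limma adjusted p = 0.149), but it did without replicate 2, which holds the low array (0.50, adjusted p = 0.0259). The late minus early difference in the pressure effect itself was -0.18 (95% interval -0.64 to 0.28; limma adjusted p = 0.753).

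The mean effect of pressure on ZIP6 in roots over the 6 times was 0.47 (SE 0.09, limma adjusted p = 0.000126). In that comparison 1 of 5 members was called and it was higher, while 13.1% of all probe sets tested were called higher and 18.2% lower. The call held in all 12 other settings, with changes between 0.43 and 0.58, the last of these without the 48 and 72 h arrays. At 6 h ZIP6 was the 1 of 5 members called, with 4.59% of all probe sets in roots called higher and 4.6% lower, and at 12 h it was again the 1 of 5, with 5.66% called higher and 6.35% lower. Groups that did not overlap were more common than calls: at 12 h, 12.5% of probe sets had all 3 arrays at 10 kPa above all 3 at 97 kPa.

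In shoots ZIP6 had a lower signal and smaller differences. The mean was again higher at 10 kPa at all 6 times, and the changes were between 0.06 and 0.36 (SE 0.21). None passed the test, and the mean effect was 0.16 (95% interval -0.01 to 0.34; limma adjusted p = 0.147). At 6 h, where the difference was largest, ZIP6 gave 250.0, 288 and 272 at 10 kPa, against 212, 236 and 179.9 at 97 kPa. Those groups did not overlap, and 17% of all probe sets in shoots separated in that direction at that time. The pressure effect in roots minus that in shoots was 0.31 for ZIP6 (SE 0.13) and did not pass the test (limma adjusted p = 0.0703), though it did after quantile normalization (0.36, adjusted p = 0.0434) and with a higher pseudocount (0.30, adjusted p = 0.041). No member was called in that comparison, 1 of 5 had an unadjusted p below 0.05, and 25.9% of all probe sets were called.

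ZIP9, the other ZIP gene, showed no called pressure effect. On root arrays its signal ranged from 33.9 to 206 at 10 kPa (median 109) and from 6.38 to 174 at 97 kPa (median 117). Single control arrays fell far below their group: at 6 h the 10 kPa roots gave 123, 170.3 and 106, against 113, 119 and 6.38 at 97 kPa, and at 48 h they gave 137, 77.1 and 103, against 174, 94.3 and 7.15 at 97 kPa. The changes in roots ran from -0.79 at 3 h to 1.17 at 6 h (SE 0.64), with limma adjusted p of 0.291 or more. At 3 h the 10 kPa arrays, at 74.7, 55.9 and 89.9, all lay below the 97 kPa arrays, at 108, 125 and 167, and 16.7% of all probe sets separated that way. The mean effect in roots was 0.12 (95% interval -0.41 to 0.66; limma adjusted p = 0.766). In shoots ZIP9 gave 11.9 to 109 at 10 kPa and 11.6 to 96.3 at 97 kPa, and was not tested.

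NRAMP5, the NRAMP-family gene, was near the lower end of the array signal and showed no called effect either. On root arrays it gave 12.9 to 169 at 10 kPa (median 77.3) and 16.4 to 193 at 97 kPa (median 68.7). Its changes in roots ran from -1.31 at 12 h to 0.95 at 6 h (SE 0.61), and the smallest limma adjusted p was 0.176, at 12 h. There the arrays gave 12.9, 87.9 and 30.7 at 10 kPa, against 146, 96.4 and 69.4 at 97 kPa, and the groups overlapped. The mean effect of -0.12 had a 95% interval of -0.63 to 0.38, so a change of up to about that size in either direction could not be told from the spread of these arrays. In shoots NRAMP5 gave 3.68 to 78.0 at 10 kPa and 1.36 to 56.7 at 97 kPa, and was not tested.

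MTP11, the manganese transporter gene, was measured with the least spread and was higher at 10 kPa than at 97 kPa in roots at 3 h. After 3 h in roots it gave 2037, 1836 and 2139.9 at 10 kPa, against 1285, 1425 and 1534 at 97 kPa. All 3 arrays at 10 kPa lay above all 3 at 97 kPa, which 12.1% of all probe sets did at that time. MTP11 rose by 0.50 (SE 0.15, limma adjusted p = 0.0378), a 1.41-fold change, and it was the 1 of 5 members called at 3 h, when 2.57% of all probe sets in roots were called higher and 3.43% lower. The call was lost when any 1 of the 6 arrays was left out, with adjusted p between 0.0509 and 0.171, and after quantile normalization (0.0714).

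At 1 h in roots MTP11 gave 1913, 2202 and 1316 at 10 kPa, against 1365, 1492 and 1398 at 97 kPa. Here 2 arrays at 10 kPa were high and the third was the lowest of the 6, and the change of 0.32 (SE 0.15) did not pass the test (limma adjusted p = 0.31). No member was called by limma at 1 h in roots, when 3.56% of all probe sets were called, and 1 of 5 had an unadjusted p below 0.05. From 6 to 72 h the changes lay between -0.23 and -0.05, none of them called. The pressure effect at 48 and 72 h minus that at 1 and 3 h fell by 0.49 (SE 0.15, limma adjusted p = 0.0472). In that comparison 1 of 5 members was called and it was lower, while 2.99% of all probe sets were called lower and 2.19% higher. That call was lost without any filter (adjusted p = 0.0533), without the 4 arrays numbered apart (0.0681) and with each replicate left out. Averaged over the times, the effect in roots was 0.05 (95% interval -0.07 to 0.18), the narrowest interval of the 5 genes.

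In shoots the signal of MTP11 moved with time at both pressures. The group means at 1, 3, 6, 12, 48 and 72 h were 1813, 1625, 1430.3, 1159, 1047 and 1154 at 10 kPa. At 97 kPa they were 1745, 1385, 1487, 1109, 958 and 1043. The late minus early level, a comparison added after the values were seen, fell by 0.65 at 10 kPa (SE 0.12, limma adjusted p = 5.79e-05) and by 0.65 at 97 kPa (SE 0.12, limma adjusted p = 0.000105). At 10 kPa 1 of 3 members was called and was lower, with 17.3% of all probe sets called lower and 13.2% higher, and at 97 kPa 2 of 3 were called, 1 in each direction, with 11.1% of all called lower and 11.4% higher. The change at 10 kPa was not called with the 3′ to 5′ ratio as a covariate (-0.49, adjusted p = 0.125), while that at 97 kPa held in all 11 other settings. No pressure comparison called MTP11 in shoots: the 6 changes lay between -0.05 and 0.23 (SE 0.16), and the late minus early difference in the pressure effect was -0.00057 (95% interval -0.34 to 0.33; limma adjusted p = 0.998). The largest change, 0.23 at 3 h (limma adjusted p = 0.52), came from groups that did not overlap. They gave 1564 to 1666 at 10 kPa, against 1263 to 1488 at 97 kPa, and 14.5% of all probe sets in shoots separated that way.

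**Figure D2:**
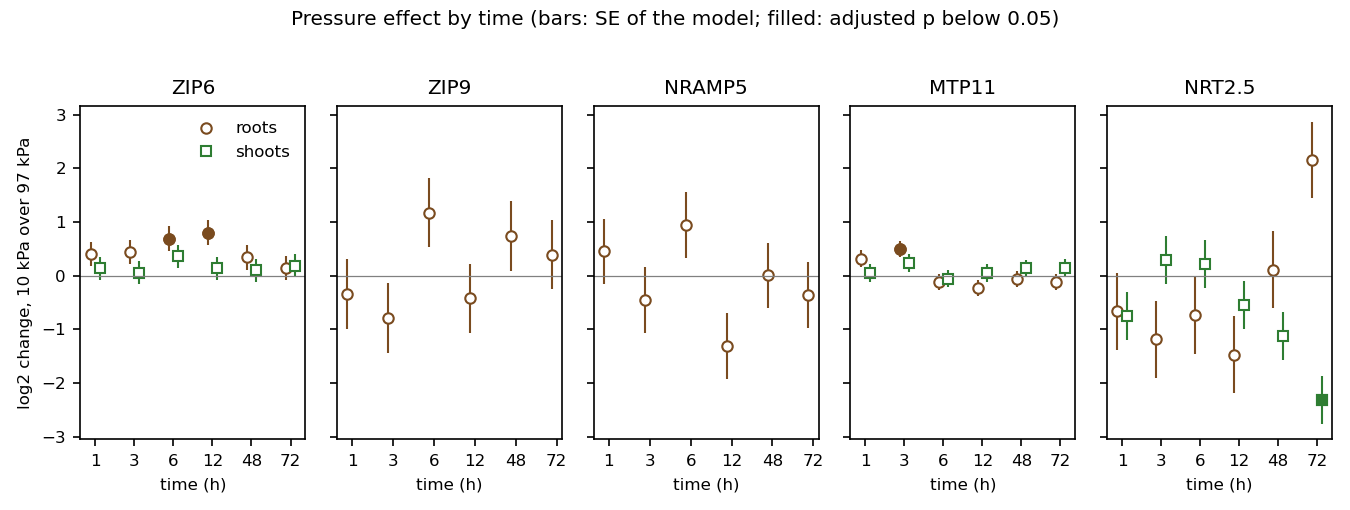
Log2 change of 10 kPa over 97 kPa (vertical axis) against time in h for each gene, with circles for roots, squares for shoots, bars for the SE of the model and filled symbols for an adjusted p below 0.05. ZIP6 is filled at 6 and 12 h and MTP11 at 3 h in roots, and NRT2.5 at 72 h in shoots, where it stands at -2.31 while its root value is 2.16.

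NRT2.5, the nitrate transporter gene, was lower at 10 kPa than at 97 kPa in shoots at 72 h, the only single time called there. After 72 h in shoots it gave 11.4, 51.8 and 78.2 at 10 kPa, against 217, 217 and 249.9 at 97 kPa. The highest 10 kPa array was far below the lowest 97 kPa array, and the means were 47.1 ± 33.6 and 228 ± 19.2 (SD, n = 3 each). NRT2.5 was 4.97-fold lower at 10 kPa, a change of -2.31 (SE 0.45, limma adjusted p = 0.000302). It was the 1 of 3 members called in shoots at 72 h, when 10.5% of all probe sets were called lower and 9.33% higher. The call held in all 14 other settings in which the gene was tested, with changes between -2.75 and -1.57 and adjusted p of 0.0165 or less; with a filter at the 60th percentile the gene was not tested. Within the pair of arrays numbered apart, the signal was 51.8 at 10 kPa and 249.9 at 97 kPa, a difference of -2.09 with 1 array each.

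Of other measures in those shoots, the 3′ to 5′ ratio separated by pressure, while the marker sums overlapped. At 72 h the mean log2 3′ to 5′ ratio was 3.06 to 3.53 at 10 kPa, against 2.04 to 2.41 at 97 kPa, and with that ratio as a covariate the change of NRT2.5 was -2.68 (SE 0.66, limma adjusted p = 0.0165). The summed root markers, 3 of 16 named, were 952 to 1392 at 10 kPa, against 612 to 1233 at 97 kPa, and the summed photosynthesis markers, 8 of 18 named, were 142923 to 169881 at 10 kPa, against 156434 to 191795 at 97 kPa. None was at 0, and their part in the result was not tested.

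At 48 h in shoots NRT2.5 gave 123, 100.0 and 34.9 at 10 kPa, against 258, 136 and 161 at 97 kPa. The groups again did not overlap, but the change of -1.13 (SE 0.45) did not pass the test (limma adjusted p = 0.064); it did with a higher pseudocount and without 10 kPa replicate 1. No member was called in shoots at 48 h, while 23.7% of all probe sets were called, and 1 of 3 members had an unadjusted p below 0.05. The mean log2 3′ to 5′ ratio at 48 h was 3.38 to 3.97 in 10 kPa shoots, against 1.95 to 2.70 in 97 kPa shoots. With that ratio as a covariate, 472 of 15794 probe sets were called in shoots at 48 h, against 3750 without it, and at 72 h 657 were called, against 3130 without it. At 1 h the arrays gave 83.4, 51.6 and 63.8 at 10 kPa, against 118, 126 and 106 at 97 kPa. That was the third time without overlap, and the change of -0.76 was not called (limma adjusted p = 0.409). Of all probe sets in shoots, 10.6% at 1 h, 15.3% at 48 h and 17.3% at 72 h separated in that direction.

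At the times between, the shoot groups overlapped. NRT2.5 gave 78.5, 167 and 118 at 10 kPa after 3 h, against 119.5, 61.0 and 109 at 97 kPa. After 6 h it gave 153, 104 and 87.9 at 10 kPa, against 73.8, 129 and 90.8 at 97 kPa. After 12 h it gave 118, 50.9 and 69.7 at 10 kPa, against 171, 159 and 53.1 at 97 kPa. The changes were 0.29, 0.22 and -0.55, with limma adjusted p of 0.58 or more. No member was called in shoots at 1, 3, 6 or 12 h, none had an unadjusted p below 0.05 there, and the share of all probe sets called was 4.36% at 1 h, 5.4% at 3 h, 11.7% at 6 h and 7.41% at 12 h.

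Over the 6 times NRT2.5 fell by 0.71 in shoots (SE 0.18, limma adjusted p = 0.00238), and it was the 1 of 3 members called, with 17.6% of all probe sets called lower and 18.6% higher. That mean rested on the late times: without the 48 and 72 h arrays it was -0.20 (SE 0.19, adjusted p = 0.459). The pressure effect at 48 and 72 h minus that at 1 and 3 h was -1.49 (SE 0.45, limma adjusted p = 0.0185), the 1 of 3 members called, with 10.4% of all probe sets called lower and 7.72% higher. This call was lost with each replicate left out and with the 3′ to 5′ ratio as a covariate, where the highest adjusted p was 0.116. The late minus early level of NRT2.5 in shoots was -0.59 at 10 kPa (SE 0.32, limma adjusted p = 0.158) and 0.90 at 97 kPa (SE 0.32, limma adjusted p = 0.0384), the second of these lost in 7 of 10 other settings. These level comparisons were added after the values were seen.

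In roots NRT2.5 pointed the other way at 72 h, with much spread. The arrays gave 275, 31.3 and 64.7 at 10 kPa, against 11.7, 6.08 and 21.9 at 97 kPa. All 3 arrays at 10 kPa lay above all 3 at 97 kPa, as 9.53% of all probe sets did, but 1 of them was far above the other two. The change of 2.16 (SE 0.72) did not pass the test (limma adjusted p = 0.0553); it passed with no pseudocount (2.83, adjusted p = 0.0378) and without 10 kPa replicate 2 (2.77, adjusted p = 0.0215). No member was called in roots at 72 h, when 8.16% of all probe sets were called, and 1 of 5 had an unadjusted p below 0.05. Within the pair numbered apart the signal was 31.3 at 10 kPa and 6.08 at 97 kPa, a difference of 1.42. The photosynthesis markers summed to 12789 to 22996 in those 10 kPa roots, against 11093 to 16695 in the 97 kPa roots, and their part was not tested.

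Before 72 h no change of NRT2.5 in roots was called, and its mean was lower at 10 kPa at each of those times. It gave 23.6, 84.9 and 81.9 at 10 kPa after 1 h, against 122, 79.9 and 85.4 at 97 kPa. After 3 h it gave 97.0, 24.5 and 54.3 at 10 kPa, against 137, 115 and 137 at 97 kPa. Only the 3 h groups, of the 5 times before 72 h, did not overlap, and 16.7% of all probe sets in roots separated that way at 3 h. After 6 h it gave 82.0, 11.5 and 81.7 at 10 kPa, against 96.9, 110.1 and 52.6 at 97 kPa. After 12 h it gave 25.9, 45.6 and 14.1 at 10 kPa, against 178, 112 and 32.4 at 97 kPa. After 48 h it gave 65.6, 73.9 and 115 at 10 kPa, against 68.4, 35.0 and 169.9 at 97 kPa, and all of these groups overlapped. The changes at 1, 3, 6, 12 and 48 h were -0.66, -1.19, -0.73, -1.47 and 0.11 (SE 0.72 each), with limma adjusted p of 0.198 or more. At 48 h no member was called in roots and none had an unadjusted p below 0.05, while 11.5% of all probe sets were called.

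The 97 kPa level of NRT2.5 in roots differed between times as well. Its mean at 97 kPa was 129.7 ± 12.5 at 3 h and 13.2 ± 8.01 at 72 h (SD, n = 3 each), and the late minus early level fell by 1.49 (SE 0.51, limma adjusted p = 0.0281), the 1 of 5 members called, with 12.6% of all probe sets called lower and 11.5% higher. That call was lost without the 4 arrays numbered apart (adjusted p = 0.0547) and without replicate 2 (-1.23, adjusted p = 0.183). At 10 kPa the same difference was 0.56 (SE 0.51, limma adjusted p = 0.434); no member was called there, 1 of 5 had an unadjusted p below 0.05, and 29.1% of all probe sets were called. The late minus early difference in the pressure effect was 2.06 (SE 0.72) and did not pass the test (limma adjusted p = 0.0907).

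The pressure effects on NRT2.5 in the 2 tissues at 72 h were compared directly, in a comparison chosen after the values were seen. It tests whether the effects differ, not whether their signs are opposite. The root change alone, 2.16, was not called (limma adjusted p = 0.0553). The pressure effect in roots minus that in shoots at 72 h was 4.47 (SE 0.82, limma adjusted p = 0.000252), and it was the 1 of 5 members called, with 3.49% of all probe sets called higher and 3.15% lower. The call held in 10 of 11 other settings and was lost without replicate 1 (3.07, adjusted p = 0.0621), which holds the highest root array and the lowest shoot array at 10 kPa. Averaged over the 6 times the same difference was 0.41 (95% interval -0.26 to 1.08; limma adjusted p = 0.41).

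Roots and shoots were compared at 97 kPa. ZIP6 and MTP11 were higher in roots and NRT2.5 was lower, and all 5 genes carried a call. ZIP9 and NRAMP5, however, passed the filter on low signal through root arrays alone. That favours a higher level in roots, so their values are given as a description. ZIP6 gave 268 to 731 on the 18 root arrays (median 454) and 138 to 289.9 on the 18 shoot arrays (median 227), a difference of 1.11 (SE 0.09, limma adjusted p = 6.13e-17). Its 12 root groups, at both pressures, were the 12 highest of its 24 groups. MTP11 was higher in roots by 0.40 (SE 0.06, limma adjusted p = 9.93e-08), with 1285 to 2344 in roots (median 1644) and 761 to 1990.4 in shoots (median 1264), ranges that overlapped widely.

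ZIP9 had a median of 117 in roots and 53.3 in shoots, where 0 of the 18 arrays at 97 kPa reached the 40th percentile. Its log2 difference was 0.92 (SE 0.24), 0.37 after quantile normalization, and -0.36 (SE 0.53, adjusted p = 0.588) with the 3′ to 5′ ratio as a covariate, where the sign turned. NRAMP5 gave 16.4 to 193 in roots (median 68.7) and 1.36 to 56.7 in shoots (median 15.6), where its median place was the 15.7th percentile of the array. Its log2 difference was 1.77 with the pseudocount of 8.90, 2.48 with none and 0.91 with the higher one. NRT2.5, which had enough arrays to pass the filter in either tissue, was lower in roots, by a change of -0.83 (SE 0.24, limma adjusted p = 0.00131), with 6.08 to 178 in roots (median 91.1) and 53.1 to 258 in shoots (median 127). These calls stand against a broad background: 53% of all probe sets were called higher in roots and 26.8% lower, and the median of all probe sets was 0.34, so that MTP11 lay close to that median and ZIP6 above it. Quantile normalization moved the median of all probe sets to 0.10.

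**Figure D3:**
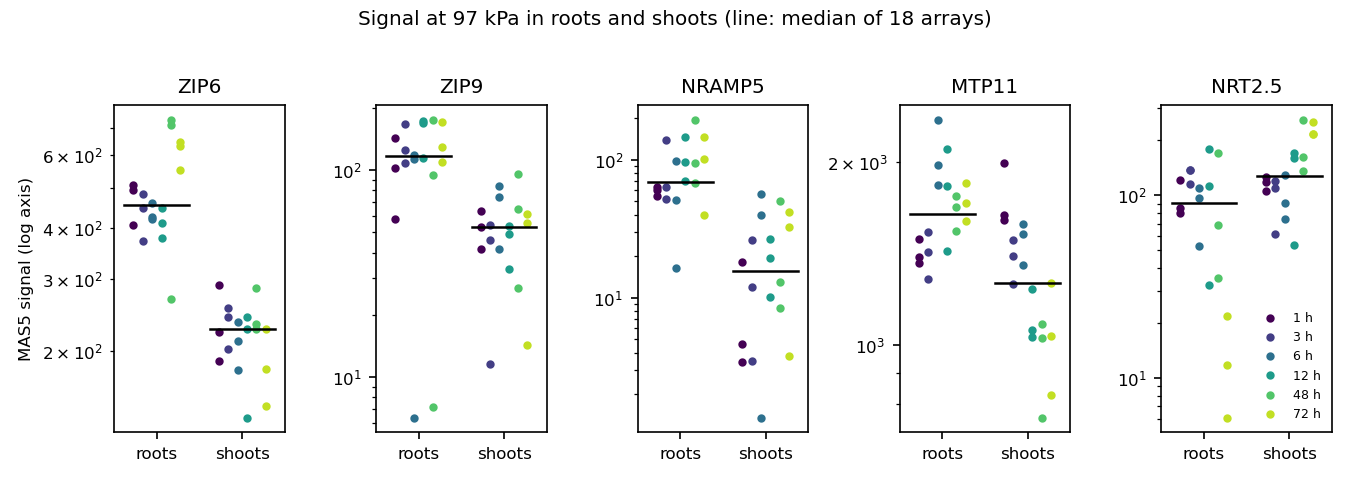
MAS5 signal (vertical axis, logarithmic) of the 5 genes in roots and shoots at 97 kPa, 1 point per array coloured by time, with a line at the median of 18 arrays. ZIP6 is separated except for 1 root array at 268, and NRT2.5 in roots has its 3 lowest points at 72 h.

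Over the 24 groups, neighbours in the order of group means overlapped in 23 of 23 pairs for ZIP9, NRAMP5, MTP11 and NRT2.5 and in 22 of 23 for ZIP6. The order of single groups was therefore not resolved, and this held for the highest and the lowest group of each gene too. For NRT2.5 the 97 kPa shoots at 72 h had the highest mean, 228, and the 97 kPa roots at 72 h the lowest, 13.2. For ZIP6 the highest mean was 733 in roots at 12 h and 10 kPa, and the lowest 185 in shoots at 72 h and 97 kPa. For MTP11 the highest was 2051 in roots and the lowest 958 in shoots, both at 97 kPa. Of the 12 highest groups 11 were root groups for ZIP9 and NRAMP5, 9 for MTP11 and 4 for NRT2.5.

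Genes that act with these transporters were few among the named probe sets. Of 23 genes of iron and zinc status, 3 were named, and all 3 were tested in both tissues. bZIP19, which drives ZIP genes under zinc shortage, rose by 0.31 in roots over the 6 times (SE 0.07, limma adjusted p = 0.000574) and by 0.27 in shoots (SE 0.06, limma adjusted p = 0.000408). At single times bZIP19 rose at 48 h, by 0.54 in roots (SE 0.17, limma adjusted p = 0.0289) and by 0.50 in shoots (SE 0.14, limma adjusted p = 0.00981), and the call was lost in 6 of 15 other settings in roots and in 3 of 15 in shoots. In shoots these were without 10 kPa replicate 3, with only the 6 arrays of the comparison and with the 3′ to 5′ ratio as a covariate, where the adjusted p was 0.318. PYE, a regulator of the iron deficiency response, rose by 1.603 after 1 h in roots (SE 0.26, limma adjusted p = 6.2e-05) and by 1.302 in shoots (SE 0.23, limma adjusted p = 0.00061). In roots PYE also rose at 3 and 6 h, by 0.86 and 0.85 (SE 0.26 each; limma adjusted p = 0.0386 and 0.0304), calls lost in 6 and 4 of 16 other settings. BHLH101, an iron deficiency regulator as well, was called at no time in either tissue. Over the 6 times 2 of the 3 rose in each tissue and 0 fell, while 13.1% of all probe sets rose in roots and 18.6% in shoots. The mean effect on PYE in shoots was 0.27 (limma adjusted p = 0.0277), and its call was lost without replicate 1 (0.16), without replicate 2 (0.22) and with the 3′ to 5′ ratio as a covariate (0.11, adjusted p = 0.671). The lists of 23 nitrate use, 17 phosphate status and 14 potassium genes had no named member, so none of the other genes of those pathways is described.

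The NRT1/PTR family (NPF), the second family of nitrate and peptide transporters, was added after the annotation was seen and had 11 named genes, 9 of them tested in each tissue. Over the 6 times 1 of 9 rose and 2 fell in roots, where 13.1% of all probe sets rose and 18.2% fell, and the median was 0.04, against -0.04 over all probe sets. In shoots 4 of 9 rose and 1 fell, where 18.6% of all probe sets rose and 17.6% fell, and the median was 0.20, against 0.01 over all probe sets. Of the 4 rises in shoots, that of NPF2.10 was lost in 7 of 12 other settings, that of NPF4.3 in 6, that of NPF6.4 in 3 and that of NPF3.1 in 1. In roots the 2 falls were those of NPF2.10 and NPF6.2 and the rise was that of NPF4.3. Each held in all 12 other settings, with changes between -0.76 and -0.53 for NPF2.10. NPF6.2, which holds nitrate in the leaf petiole, fell in shoots by 0.64 at 6 h (SE 0.15, limma adjusted p = 0.00323), by 0.88 at 48 h (SE 0.15, limma adjusted p = 5.64e-05) and by 0.94 at 72 h (SE 0.15, limma adjusted p = 2.85e-05). NRT2.5 was called in shoots at 72 h alone of these times. With the 3′ to 5′ ratio as a covariate the 48 h call of NPF6.2 was lost (-0.74, adjusted p = 0.0815) and those at 6 and 72 h held. In roots NPF6.2 fell early, by 1.29 at 3 h and by 1.46 at 6 h (SE 0.30 each; limma adjusted p = 0.00537 and 0.00115).

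Other NPF genes rose. NPF3.1, a transporter of nitrite and gibberellin, rose in shoots by 0.64 at 12 h, 0.94 at 48 h and 0.87 at 72 h (SE 0.20 each; limma adjusted p = 0.0384, 0.000605 and 0.00166). The 12 h call was lost in 5 of 16 other settings, among them without 10 kPa replicate 2 or 3 or 97 kPa replicate 2 (highest adjusted p 0.264). The calls of NPF3.1 at 48 and 72 h were lost with the 3′ to 5′ ratio as a covariate (0.84 and 0.77, adjusted p = 0.142 and 0.133) and held in the other 14 settings each. NPF5.13 rose by 1.85 in shoots at 48 h (SE 0.40, limma adjusted p = 0.00077), a call also lost with that covariate (1.86, adjusted p = 0.0992), and its change at 72 h was not called. NPF4.3 rose in roots by 1.23 at 1 h and by 1.17 at 6 h (SE 0.21 each; limma adjusted p = 0.000213 and 0.000294). It also rose by 0.63 at 12 h in roots (limma adjusted p = 0.0493), a call lost in 11 of 16 other settings.

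**Figure D4:**
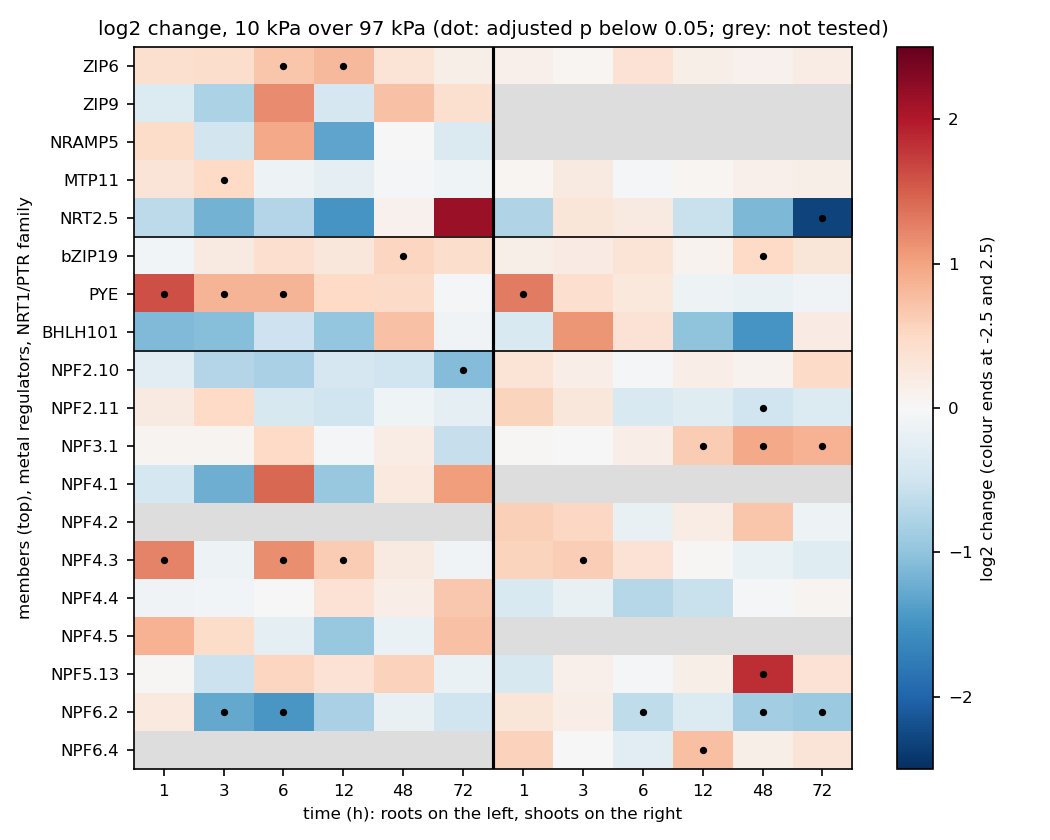
Log2 change of 10 kPa over 97 kPa (colour, red for higher at 10 kPa) at each time in h, with roots on the left and shoots on the right, for the 5 genes at the top, 3 metal regulators and 11 NRT1/PTR family genes; dots mark an adjusted p below 0.05 and grey cells were not tested. At 72 h NRT2.5 is blue with a dot in shoots and red without a dot in roots. NPF6.2 is blue in shoots at 48 and 72 h, and NPF3.1 is red there.

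Of 14 genes of sulfate use, 3 were named. SIR, the sulfite reductase of sulfate assimilation, rose in roots over the 6 times by 0.36 (SE 0.06, limma adjusted p = 4.96e-06) and fell in shoots at 72 h by 0.44 (SE 0.15, limma adjusted p = 0.0304), a fall lost in 5 of 15 other settings. APS4, an ATP sulfurylase that makes the activated form of sulfate, fell by 1.12 at 48 h and fell by 1.096 at 72 h in shoots (SE 0.18 each; limma adjusted p = 3.31e-05 and 5.42e-05). In roots APS4 rose by 0.63 at 12 h (SE 0.21, limma adjusted p = 0.0381) and fell by 0.91 at 72 h (SE 0.21, limma adjusted p = 0.00343). The rise at 12 h was lost in 7 of 16 other settings, with a change of 0.33 (adjusted p = 0.414) without 10 kPa replicate 3, and the fall at 72 h held in all 15. APS3, a related enzyme, was called in no pressure comparison at a single time.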

How the data were processed

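The authors deposited a linear signal intensity for each probe set; the submitters' processing notes name MAS5 and Affymetrix Expression Console, with versions not given in the sources used here. Each array was a single-colour ATH1 array of 22810 probe sets, 64 of them controls, and the mean after trimming 2% at each end was 500.0 or 500.1 on every array, so no further scaling was applied. A single gene was named for 13513 probe sets, several for 503 and none for 8794; 13436 of the single names matched the reference table. Arrays give no read depth, and the number of arrays, 3 per group, limits the precision.

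Signals were analysed as log2(signal + 8.90), the added value being the 10th percentile. A probe set was tested if 3 or more arrays had it at or above their own 40th percentile: 16667 in roots, 15794 in shoots and 17901 in both. The fit used limma 3.58.1 (lmFit, eBayes with trend; R 4.3.3) and group means, with 36 arrays per tissue with 24 residual degrees of freedom or all 72 with 48. Tests were two-sided with Benjamini-Hochberg adjustment over all probe sets tested, and 0.05 was the threshold.

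The members and lists were chosen with earlier results of these data known. Values per array are given for members called in a pressure comparison, and up to 4 called genes of each list are described. For ZIP9 and NRAMP5, called in none, ranges and counts are given. Their values per array are shown only at times with their largest changes or with an array far below its group. The late minus early levels, the root minus shoot effect at 72 h, the setting without the 48 and 72 h arrays and the NRT1/PTR list were added after values or annotation were seen.

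Replicate numbers did not pair the samples: of 36 same-numbered pairs of 10 and 97 kPa arrays, 0 had residuals correlated above 0.1 (-0.07 to 0.0996). Root and shoot arrays came from the same tube in 29 tubes, and the fit of all 72 arrays treated them as independent. Residuals within those tubes correlated between -0.025 and 0.103. On simulated data for the 72 h comparison in roots, changes of log2 1 and 2 were recovered in 53% and 78% of cases with 5.07% of calls false, and in shoots in 61% and 92% with 5.56% false. The simulation held 200 changed probe sets, while 1360 of 16667 were called in roots at 72 h. Its shares therefore need not hold for the real data or for single dim genes.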

Additional observations from a re-analysis of the deposited data

Results flagged for a closer look

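Of the 5 genes, 2 had a pressure effect that differed between times or tissues in a direct test. For the late minus early effect, 2.99% of all probe sets were called lower and 2.19% higher in roots. In shoots 10.4% were called lower and 7.72% higher. For the root minus shoot effect at 72 h, 3.49% were called higher and 3.15% lower. The pressure effect on MTP11 in roots was lower at 48 and 72 h than at 1 and 3 h by a log2 difference of -0.49 (SE 0.15, limma adjusted p = 0.0472). The pressure effect on NRT2.5 in shoots was likewise lower at 48 and 72 h than at 1 and 3 h, by -1.49 (SE 0.45, limma adjusted p = 0.0185). At 72 h the pressure effect on NRT2.5 in roots minus that in shoots was 4.47 (SE 0.82, limma adjusted p = 0.000252), in a comparison chosen after the values were seen. The 97 kPa roots in it were dim, at a median 10.4th percentile of the array, and the root change alone was not called. The MTP11 difference and the shoot difference of NRT2.5 lost their call whenever a replicate was left out, and the difference at 72 h lost it without replicate 1 alone.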

How the results depend on the processing

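The counts of members called were small, so 1 gene near the threshold changed them. At 3 h in roots the count was 0 after quantile normalization. At 6 h in roots it was 0 after quantile normalization, with no pseudocount, with no filter, without the 4 arrays numbered apart and with the 3′ to 5′ ratio as a covariate. At 72 h in roots it was 1 with no pseudocount. For the late minus early effect in roots it was 0 with no filter and without the 4 arrays. At 48 h in shoots it was 1 with a higher pseudocount. With a filter at the 60th percentile, which removed NRT2.5, it was 0 at 72 h, for the mean effect and for the late minus early effect in shoots, and 2 for the root minus shoot level, against 5 with the usual filter, of which ZIP9 and NRAMP5 passed the usual filter through roots alone; the late minus early effect in shoots was also 0 with the ratio as a covariate. Without the 48 and 72 h arrays the mean effect in shoots gave 0. For the root minus shoot pressure effect the count was 1 after quantile normalization and 1 with a higher pseudocount.

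With each replicate left out, counts ranged from 0 to 1 at 1, 12 and 72 h in roots and at 48 h in shoots. They were 0 throughout at 3, 6 and 48 h and for the late minus early effect in roots, at 1, 3, 6 and 12 h and for the late minus early effect in shoots, and for the root minus shoot pressure effect. They were 1 throughout for the mean effect in roots and at 72 h in shoots, 1 to 2 for the mean effect in shoots, and 4 to 5 for the root minus shoot level. The sign of 1 called change turned: ZIP9, root minus shoot level, was -0.36 with the ratio as a covariate, where tissue and ratio move together. With the replicate number as a block, the counts of members called were the same in each comparison (1 at 12 h in roots, 1 at 72 h in shoots). Of the listed genes it lost SIR (adjusted p = 0.0500358) and NPF4.3 (0.0531) at 12 h in roots and NPF2.10 for the mean effect in shoots (0.0522).

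Signal over background limited the dim genes: in roots NRAMP5, ZIP9 and NRT2.5 lay mostly under the 40th percentile of the array.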
